A study of Rattus norvegicus with 6 samples.

Results

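The nuclear genes of the mitochondrial respiratory chain and the ATP synthase were followed in synovial fibroblast-like cells of arthritic rats. Members were taken by gene symbol from the expression table, with the most abundant row standing for a symbol that had several. They were Ndufa, Ndufb, Ndufc, Ndufs and Ndufv symbols with a number, Sdha to Sdhd, and Uqcr, Cyc1, Cycs, Cox4 to Cox8 and Atp5 symbols. Ndufab1 and the Ndufaf and Sdhaf symbols fell outside this rule. The rule gave 80 of the 16499 symbols in the table. By known role, 33 encode complex I, 4 complex II, 8 complex III, 1 cytochrome c, 16 complex IV and 14 complex V, the ATP synthase. The other 4 carry a family name without being a fixed subunit: Atp5sl (now Dmac2) and Atp5s (now Dmac2l), the ER membrane protein complex gene Cox4nb and the pseudogene Cox6c-ps1. No gene of the mitochondrial genome is in the table, so the subunits encoded there were not analysed here.

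Electrons from NADH enter the inner mitochondrial membrane at complex I and those from succinate at complex II. They pass over ubiquinone to complex III, over cytochrome c to complex IV, and on to oxygen. The protons pumped on the way drive the ATP synthase, in which a membrane ring (Fo) turns a stalk inside the catalytic head (F1). Fibroblasts of the inflamed joint lining are known for a high use of glucose, which makes the balance between glycolysis and respiration a recurring question in arthritis.

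All cells came from female Wistar rats with collagen-induced arthritis. The labels number the cell source RA1 or RA2 and say that cultures were divided over 3 conditions, so that each culture condition had 2 libraries, 1 of RA1 and 1 of RA2. Whether a code stands for a single rat was not given in the sources used here. The medium held either fetal bovine serum (FBS), rat serum from animals without treatment (MS-), or rat serum taken after 18 days of mechanical stimulation by needle, which the labels call acupuncture (MS+). For MS-, the text of the study describes blood taken before therapy from arthritic animals, while one label field speaks of healthy rats, and the number of serum donors was not given in the sources used here. The replicate is therefore a cell source and not a serum donor. Without the block described below, p-values measure the spread between RA1 and RA2, which may be partly technical. With it, they measure how far the differences between sera vary from RA1 to RA2, and this too may be partly technical. Every group was grown from arthritic synovium, so no group shows healthy cells.

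The 6 libraries held 5463316 to 5991889 reads, and 9820 transcript features passed the filter on low values (both libraries of at least 1 group at 1 CPM or more, CPM being reads scaled to library size). A floor of 3 reads in a single library was worth 0.491 to 0.551 CPM, a limit for counting error only. The markers partly fitted the fibroblast label. The 11 fibroblast markers, of which 9 were tested, took 6.29% to 8.97% of all reads. Col1a1, Col1a2, Vim and Col3a1 were among them, whereas Dcn (0 to 0.901 CPM) and Lum (0 to 0.918 CPM) were near 0. Of the other cell types, Ptprc, Itgam, Hbb and Cdh5 had 0 reads in all 6 libraries, and Cd14 stood at 12.1 to 19.4 CPM. The 14 skeletal muscle genes in the table summed to 992 to 1289 CPM a library. Most of this was Acta1, and the myosin genes among them are described below with Cox6a2.

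The promoter stretches of 4 members are shown because, among the respiratory chain members, these genes carry the calls with the smallest adjusted p with the block described below or, for Atp5j, the largest rise. They are taken from the RefSeq promoter windows of assembly GRCr8 and cover the 160 bases before the annotated start, each read 5′ to 3′ on the strand of the gene, which is the minus strand for all 4. Capitals mark matches to any of 5 short motifs, searched on both strands: GCATGCGC for NRF1, CCGGAAG for the ETS family to which GABP belongs, AAGATGGCG for YY1, GGGCGG for SP1 and CCAAT for NFY. The Cycs stretch (chr4:80984768-80984927) holds an NRF1 match and 2 NFY matches, the Uqcrh stretch (chr5:134790883-134791042) an NFY and an ETS match, the Atp5j stretch (now Atp5pf, chr11:37375102-37375261) a YY1 and an ETS match, and the Ndufv2 stretch (chr9:113157521-113157680) none of the 5.
Cycs: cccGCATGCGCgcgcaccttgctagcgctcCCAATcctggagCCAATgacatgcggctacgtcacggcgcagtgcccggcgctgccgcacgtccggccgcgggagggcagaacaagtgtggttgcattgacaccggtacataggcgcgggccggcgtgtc
Uqcrh: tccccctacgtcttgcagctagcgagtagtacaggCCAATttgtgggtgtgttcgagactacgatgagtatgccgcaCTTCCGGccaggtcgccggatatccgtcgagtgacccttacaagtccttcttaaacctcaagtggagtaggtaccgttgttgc
Atp5j: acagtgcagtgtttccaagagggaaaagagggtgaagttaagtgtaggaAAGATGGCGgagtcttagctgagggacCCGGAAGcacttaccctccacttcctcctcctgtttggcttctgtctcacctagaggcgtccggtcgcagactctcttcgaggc
Ndufv2: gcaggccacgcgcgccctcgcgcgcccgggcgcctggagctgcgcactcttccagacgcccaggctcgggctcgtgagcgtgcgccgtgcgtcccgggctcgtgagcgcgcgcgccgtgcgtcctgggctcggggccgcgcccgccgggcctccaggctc

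Promoter windows of 300 bases (250 before the start and 50 after it) were found for 65 of the 80 members; those without one included Atp5g3, Atp5h, Atp5sl, Cox4i2, Cox6a1, Cox6c, Cox6c-ps1, Cyc1, Ndufa10l1, Ndufa8, Ndufb9, Ndufs6, Uqcr11 and Uqcrb. An NRF1 match lay in 15.4% of these 65 windows, against 5.49% of the windows of 7489 genes tested in these cells and 2.66% of all 27457 genes with a window. The ETS motif was found in 30.8% of the member windows, 19.6% of those of genes tested and 9.22% of all. YY1 letters were found in 12.3%, 3.99% and 1.93%. NRF1, the ETS factor GABP and YY1 are known regulators of respiratory chain genes. The 2 general promoter motifs did not follow this order. The SP1 letters were in 43.1% of member windows, 64.1% of those of genes tested and 34.9% of all, and CCAAT in 33.8%, 38.4% and 37.7%. These shares describe letters in a window and were not tested.

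**Figure D1:**
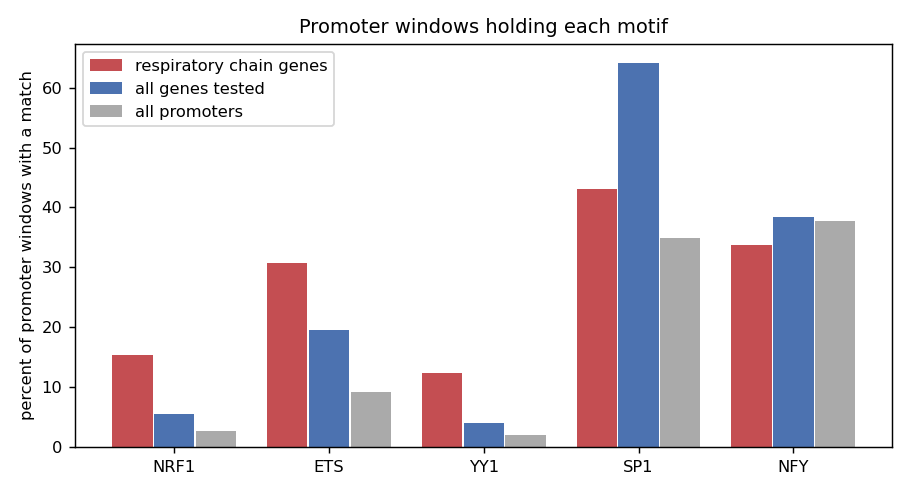
Percent of promoter windows that hold each of 5 motifs (vertical axis), for the respiratory chain genes (red, 65 windows), all genes tested in these cells (blue, 7489) and all genes with a window (grey, 27457). The red bars are the highest for NRF1 (15.4%), ETS (30.8%) and YY1 (12.3%), and lie between the others for SP1 (43.1%) and below both for NFY (33.8%).

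Transcripts of nearly the whole chain were counted in all 6 libraries. Of the 80 members, 75 passed the filter and 72 of them stood at 5 CPM or more in every library. Together the 80 took 0.656% and 0.555% of the reads in FBS (RA1, then RA2), 0.618% and 0.536% in MS-, and 0.622% and 0.590% in MS+. The members that were not tested are isoforms or copies of restricted expression: Cox8b, Cox8c, Ndufa10l1 and Cox6c-ps1 had 0 reads in all libraries, which allows up to 0.551 CPM in any of them, and Cox4i2, an isoform of lung and of low oxygen, stood at 0.180 to 1.82 CPM.

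No member passed a Benjamini-Hochberg adjusted p of 0.05 in any of the 3 comparisons with limma on log2(CPM + 1), fitted over all 9820 features with culture condition as the only term. In MS+ against MS-, 0 of 75 members passed, where the share over all features was 0.0204%. In MS+ against FBS the count was 0 where 9.61% of all features passed, and in MS- against FBS 0 where 4.81% passed. edgeR, DESeq2 and limma-voom without a term for the cell source also called 0 members in each comparison. At an unadjusted p under 0.05, the members counted 2 in MS+ against MS- (14.7% of all features), 6 in MS+ against FBS (27.5%) and 2 in MS- against FBS (21.1%). The rule of the study (unadjusted p under 0.05, at least a 2-fold change, mean CPM of 1 or higher) took in 0 members in each, beside 1.24%, 5.30% and 3.62% of all features in the same order.

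The intervals behind the absence of calls rest on RA1 and RA2 and do not measure the spread between serum donors. The 95% interval of the log2 fold change lay within a 2-fold change in either direction for 72, 73 and 72 of the 75 members in MS+ against MS-, MS+ against FBS and MS- against FBS, and within a 1.5-fold change for 57, 56 and 62. Of all 9820 features, 8088, 7366 and 7726 lay within 2-fold in the same order, and 4738, 3900 and 4306 within 1.5-fold. The members outside the 2-fold bounds were Cox6a2 and Cox6b2, which rest on few reads, in all 3 comparisons, and Atp5s in both that involve MS-. In bulk RNA, fewer cells that express a gene and less of its RNA per cell cannot be told apart.

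The labels give the 3 libraries of RA1 a shared code and those of RA2 another, and a blocked fit, with this code as a term, removes the steady difference between them. With it, limma called 1 of 75 members in MS+ against MS- (10.1% of all features), 8 in MS+ against FBS (28.2%) and 4 in MS- against FBS (20.5%). The share of members called, 1.33%, 10.7% and 5.33%, was thus below that of all features in each comparison. These calls are described below by complex, each with the value in every library.

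**Figure D2:**
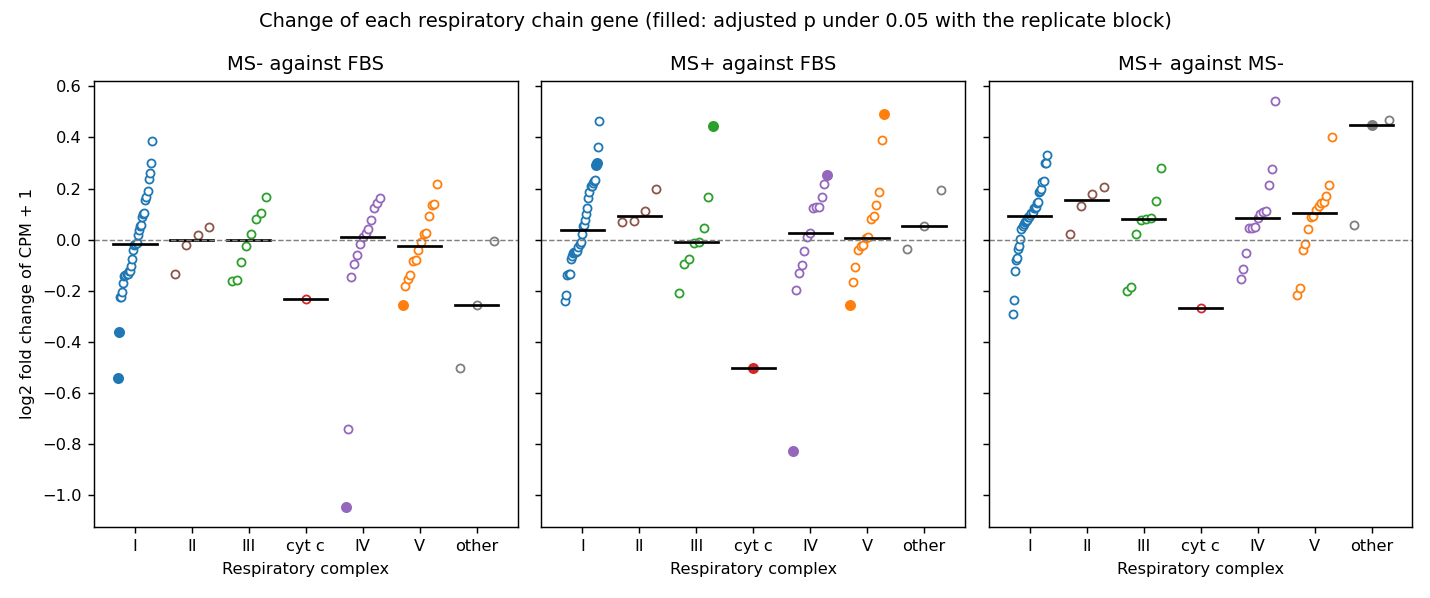
Each point is 1 of the 75 respiratory chain genes tested, placed by complex (horizontal axis; cyt c is cytochrome c, other the genes that are no fixed subunit) and by its log2 fold change of CPM + 1 (vertical axis) in the 3 comparisons; black lines are medians and filled points passed an adjusted p of 0.05 with the block. Most points lie within 0.4 of zero, the filled ones number 4, 8 and 1 from left to right, and in MS+ against MS- the medians of complexes I to V lie above zero, between 0.079 and 0.16.

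MS+ against MS- sets the serum of stimulated animals beside that of untreated ones. By the text of the study, MS- serum was drawn before therapy and MS+ serum at day 18. Stimulation, time and disease stage of the donors therefore cannot be told apart. In this comparison 58 of 75 members had a positive log2 fold change, beside 49.0% of all features. Their median was 0.090, against -0.0058 over all features. The size was small and uneven between the cell sources: RA1 had a median of 0.064 and RA2 one of 0.14, and 41 members were higher in both sources while 11 were lower in both. Of the 75, 26.7% were higher in MS+ without overlap of the libraries (22.6% of all features) and 10.7% were lower without overlap (23.1%). In the fit without the block, the median was -0.0060 without the MS- library of RA2 and 0.17 without that of RA1; with the block it was 0.083 and 0.11. The cytosolic ribosomal proteins, which make up the cytoplasmic ribosome, had 71 of 78 positive values and a median of 0.13 in the same comparison.

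No subunit of complex I passed the test in MS+ against MS-. All 7 subunits of its iron-sulfur and flavin core had a positive log2 fold change, with a median of 0.20, and 5 of the 7 were higher without overlap, as were 22.6% of all features. The 25 accessory subunits had a median of 0.072, with 18 positive. The absence of a call held with and without the block. Ndufs8, a core iron-sulfur subunit that passes electrons towards ubiquinone, had 38.8 and 38.3 CPM in MS- (RA1, RA2), 47.6 and 49.9 in MS+, and 45.7 and 41.3 in FBS. Both MS+ libraries lay above the other 4. Its log2 fold change against MS- was 0.33 ± 0.11 (SE), the largest of complex I, with an adjusted p of 0.249 in limma and 0.0816 with the block. Ndufv1, the core subunit that binds NADH, had 0.20 ± 0.11.

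Of the 32 complex I members, 7 had a negative value. Ndufs5, an accessory subunit on the intermembrane side, had 25.8 and 32.0 CPM in MS- and 21.4 and 25.3 in MS+, with 25.0 and 23.4 in FBS. Its log2 fold change against MS- was -0.29 ± 0.16, the lowest of the complex, and limma gave an adjusted p of 0.469. In complex II, the succinate dehydrogenase that also serves the citric acid cycle, all 4 genes had a positive value in MS+ against MS-. They ranged from 0.021 ± 0.12 for Sdhc, a membrane anchor, to 0.21 ± 0.18 for Sdhd, the other anchor. Sdha, the flavoprotein that oxidises succinate, had 99.7 and 94.5 CPM in MS-, 112 and 108 in MS+, and 95.8 and 95.7 in FBS. The MS+ values of Sdha were above all others (0.18 ± 0.089 against MS-, 0.20 ± 0.089 against FBS), at adjusted p of 0.419 and 0.201 in limma.

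The member called in MS+ against MS- was no subunit. Atp5sl (chr1:80827838-80833767 of rn4, plus strand), whose name recalls the ATP synthase, is now named Dmac2 for its part in assembling the membrane arm of complex I. It had 46.8 and 53.7 CPM in MS-, 66.1 and 71.6 in MS+, and 58.3 and 61.8 in FBS. MS- was lowest and MS+ highest in each cell source, and no groups overlapped. The log2 fold change of MS+ against MS- was 0.45 ± 0.11, or 36.5% on the CPM + 1 scale, with an adjusted p of 0.177 in limma and 0.0115 with the block. The call was lost without either MS- library (adjusted p of 0.281 without RA1 and 0.154 without RA2, limma with the block). Atp5s, the related gene now named Dmac2l, had 3.84 and 3.25 CPM in MS-, 5.22 and 5.32 in MS+, and 6.55 and 4.48 in FBS. Its difference between MS+ and MS-, 0.47 ± 0.24, did not pass (adjusted p of 0.430, and 0.234 with the block).

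**Figure D3:**
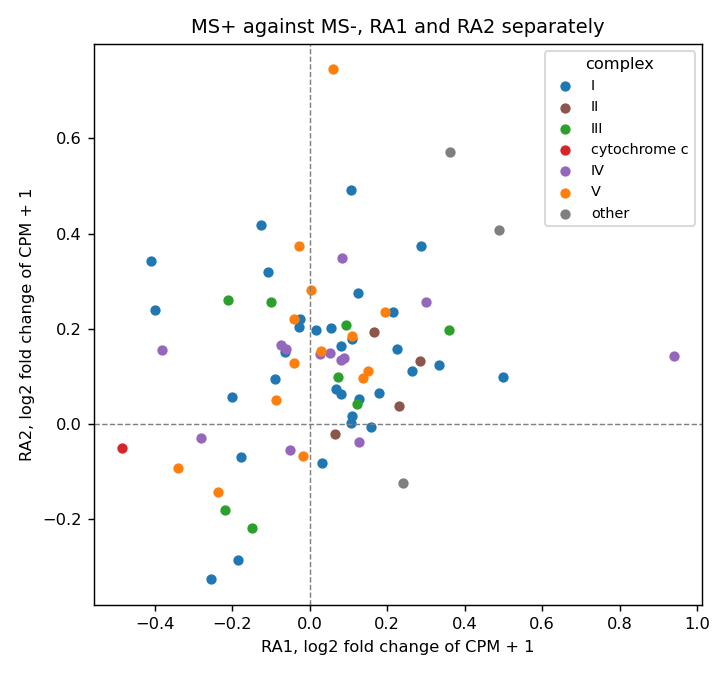
Log2 fold change of CPM + 1 between MS+ and MS- in RA1 (horizontal axis) and RA2 (vertical axis), 1 point for each of the 75 genes tested, coloured by complex. The upper right field holds the 41 genes higher in both sources and the lower left the 11 lower in both; Cycs, in red, lies far to the left at -0.49 in RA1 and -0.050 in RA2.

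Complexes III to V showed the same small median without a call. In complex III the median was 0.079 in MS+ against MS-, in complex IV 0.086 and in complex V 0.10. The largest values were those of Uqcrh in complex III (0.28 ± 0.13), Cox6b2 in complex IV (0.54 ± 0.42, from 2 to 9 reads a library in these groups) and Atp5j in complex V (0.40 ± 0.18). The lowest were Uqcrb (-0.20 ± 0.13), Cox7c (-0.15 ± 0.15) and Atp5d (-0.22 ± 0.15). Atp5b, the catalytic beta subunit, had 726 and 599 CPM in MS-, 830 and 705 in MS+, and 792 and 612 in FBS. The groups overlapped because RA1 stood higher in every culture, while MS+ was above MS- by 0.19 in RA1 and 0.24 in RA2 on the log2 scale. For Atp5b this gave a log2 fold change of 0.21 ± 0.17, with an adjusted p of 0.610 in limma and 0.104 with the block.

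In MS+ against FBS, which sets the serum of stimulated rats against the standard medium, members moved in both directions. These sera differ in species and donor age and, by the text of the study, in arthritis and stimulation. Effects of these cannot be told apart. Of 75, 42 had a positive log2 fold change, beside 50.1% of all features, and the median was 0.025 against 0.00078. Members without overlap were 21.3% higher (28.4% of all features) and 9.33% lower (28.3%). With the block 5 members rose and 3 fell, spread over complexes I, III, IV and V and cytochrome c. This comparison shares its FBS libraries with that of MS- against FBS and its MS+ libraries with the one above, so their values are not independent.

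Uqcrh, the acidic hinge protein of complex III that helps cytochrome c dock, held its call most firmly. It lies at chr5:136255481-136263674 of rn4, on the plus strand as deposited, whereas its GRCr8 promoter window above lies on the minus strand. Its level was 95.8 and 85.9 CPM in FBS, 106 and 97.6 in MS-, and 137 and 112 in MS+. FBS was lowest and MS+ highest in each source, without overlap between any of the groups. Against FBS, MS+ had a log2 fold change of 0.45 ± 0.13 (36.2%), with an adjusted p of 0.0758 in limma and 0.00185 with the block (0.00135 in edgeR with the block). Leaving out each library in turn kept the blocked call, at adjusted p of 0.000316 to 0.0131 in limma. Against MS- the value was 0.28 ± 0.13, and between MS- and FBS 0.17 ± 0.13, neither of which passed. In the same complex, Uqcrc2, a core protein, was the lowest in MS+ against FBS (-0.21 ± 0.088), with 104 and 108 CPM in FBS, 102 and 106 in MS-, and 92.1 and 91.2 in MS+. It did not pass (adjusted p of 0.185, and 0.101 with the block, limma).

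Cycs, the somatic cytochrome c that shuttles electrons between complexes III and IV and takes part in apoptosis, fell with the block. It lies at chr4:78825878-78827978 of rn4 (minus strand). It had 44.2 and 45.3 CPM in FBS, 39.5 and 36.3 in MS-, and 27.9 and 35.1 in MS+. The 3 groups did not overlap: FBS was highest and MS+ lowest in each source, the opposite order to Uqcrh. MS+ against FBS gave a log2 fold change of -0.50 ± 0.14 (-29.4%), with an adjusted p of 0.0722 in limma and 0.00909 with the block. It was lost without the MS+ library of RA1 (adjusted p of 0.120, limma with the block). The values against MS- (-0.27 ± 0.14) and of MS- against FBS (-0.23 ± 0.14) did not pass.

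In the ATP synthase, 2 subunits were called with opposite signs. Atp5j (chr11:24316748-24323800 of rn4, minus strand), which encodes coupling factor F6 of the peripheral stalk, had 36.0 and 36.8 CPM in FBS, 46.6 and 32.4 in MS-, and 48.6 and 54.9 in MS+. MS+ was above all other libraries, while the 2 MS- libraries differed widely. For MS+ against FBS it gave 0.49 ± 0.18, with an adjusted p of 0.130 in limma and 0.0193 with the block, lost without the FBS library of RA1 (0.0922) or the MS+ library of RA2 (0.172). Atp5d, the delta subunit of the central stalk, had 202 and 161 CPM in FBS, 196 and 157 in MS-, and 155 and 148 in MS+. Both MS+ values lay below the other 4, by more in RA1 than in RA2. Its log2 fold change against FBS was -0.26 ± 0.15, with an adjusted p of 0.311 in limma and 0.0455 with the block. The call of Atp5d held without the RA2 library of FBS or of MS+ and was lost without any of the other 4 (adjusted p of 0.106 to 0.428, limma with the block).

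The other blocked calls in MS+ against FBS were close to the threshold. Ndufs1, the largest iron-sulfur core subunit of complex I, had 64.5 and 56.7 CPM in FBS, 66.8 and 63.6 in MS-, and 80.4 and 68.8 in MS+ (0.29 ± 0.12, adjusted p of 0.0397 with the block, limma). Ndufb11, an X-linked accessory subunit of the membrane arm, had 55.8 and 52.6 CPM in FBS, 64.0 and 57.1 in MS-, and 69.2 and 64.8 in MS+ (0.30 ± 0.11, 0.0376). Cox4i1, the ubiquitous form of complex IV subunit 4, had 170 and 140 CPM in FBS, 189 and 154 in MS-, and 200 and 169 in MS+ (0.25 ± 0.15, 0.0328). All 3 were highest in MS+ in each source, and Cox4i1 overlapped between groups because RA1 stood higher throughout. Leaving out a library ended the calls of Ndufb11 (adjusted p of 0.0767 to 0.171 over the 6 libraries, limma with the block) and Cox4i1 (0.0575 to 0.107) in all 6 cases, and that of Ndufs1 in all (0.0905 to 0.173) but the one without the MS+ library of RA2 (0.0376). Ndufb3, an accessory subunit with the largest rise in its complex, had 0.46 ± 0.18 and missed the threshold (adjusted p of 0.0510 with the block in limma, 0.0455 in edgeR with the block).

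**Figure D4:**
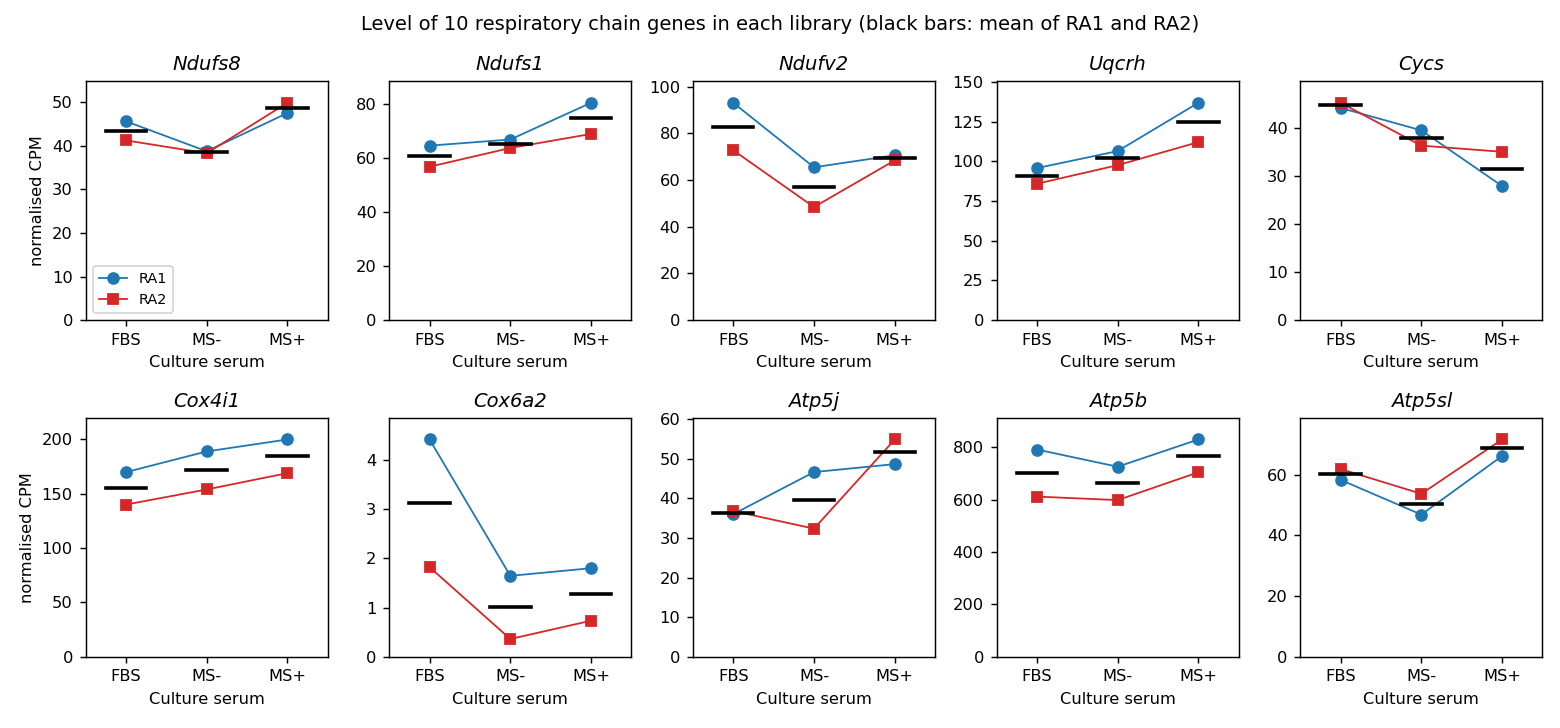
Normalised CPM (vertical axis, from 0) of 10 genes in FBS, MS- and MS+ cultures, with RA1 as blue circles and RA2 as red squares joined over the cultures; black bars are the means of RA1 and RA2. Uqcrh climbs from 90.8 to 125 CPM in mean between FBS and MS+ while Cycs descends from 44.7 to 31.5, and Ndufv2, Ndufs8 and Atp5sl are lowest in MS-.

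In MS- against FBS, 33 of 75 members had a positive value, beside 51.9% of all features, and the median was -0.018 against 0.014. Here too, species, age and health of the serum donors cannot be told apart. Without overlap, 9.33% were higher (27.1% of all features) and 18.7% were lower (24.5%). The 4 blocked calls were all falls: Ndufv2 and Ndufa12 of complex I, Atp5a1 of the ATP synthase and the complex IV isoform Cox6a2. The median changed sign with 1 library, to 0.086 without the FBS library of RA1 and 0.069 without the MS- library of RA2, in the fit without the block; with the block it was 0.0010 and 0.0084.

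Ndufv2, an iron-sulfur core subunit next to the NADH site of complex I, had the lowest value of the complex. It lies at chr9:104852714-104873325 of rn4 (minus strand). It had 93.1 and 72.8 CPM in FBS, 65.5 and 48.4 in MS-, and 70.6 and 68.5 in MS+. FBS and MS- did not overlap, and MS+ lay between them in each source. The log2 fold change of MS- against FBS was -0.54 ± 0.18 (SE; -31.2%), with an adjusted p of 0.144 in limma and 0.00260 with the block (0.00177 in edgeR with the block). The call was lost without the MS- library of RA2 (adjusted p of 0.150, limma with the block). In MS+ against FBS it was also the lowest of the complex (-0.24 ± 0.18), and there it did not pass (0.423, and 0.120 with the block, limma).

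Atp5a1, the alpha subunit of the F1 head, had 310 and 287 CPM in FBS, 267 and 235 in MS-, and 288 and 267 in MS+. MS- was lowest in each source and did not overlap FBS. Its log2 fold change of MS- against FBS was -0.25 ± 0.10, with an adjusted p of 0.225 in limma and 0.0340 with the block. Ndufa12, an accessory subunit, had 41.6 and 45.1 CPM in FBS, 29.8 and 37.6 in MS-, and 34.8 and 44.4 in MS+ (-0.36 ± 0.17, 0.278 and 0.0452). The call of Atp5a1 was lost without any FBS or MS- library (adjusted p of 0.0920 to 0.406, limma with the block). That of Ndufa12 was lost without the FBS library of RA1 (0.400) or an MS- library (0.372 for RA1 and 0.233 for RA2). The positive ends were Ndufs6 in complex I (0.39 ± 0.18), Sdhc in complex II (0.049 ± 0.12), Uqcrh in complex III, Cox7c in complex IV (0.17 ± 0.15) and Atp5g1 in complex V (0.22 ± 0.21), none of which passed. The lowest of complexes II and III were Sdhd (-0.14 ± 0.18) and Uqcrq (-0.16 ± 0.18).

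Several complex IV subunits have tissue isoforms. Levels are not compared between genes, since the values are not scaled to transcript length. Of the ubiquitous forms, Cox6a1 stood at 266 to 345 CPM in the 6 libraries, Cox7a2l at 146 to 206, Cox4i1 at 140 to 200 and Cox8a at 118 to 168, while Cox8b and Cox8c had no read. None of Cox6a1, Cox7a2l, Cox7a2, Cox8a and Ndufa4 (a subunit first assigned to complex I) passed in any comparison with or without the block, and their log2 fold changes lay between -0.14 and 0.17. Cox6a2, the heart and skeletal muscle isoform (chr1:187464579-187465325 of rn4, minus strand), was counted at 27 and 11 reads in FBS, 9 and 2 in MS-, and 10 and 4 in MS+. This is 4.42 and 1.82 CPM in FBS, 1.65 and 0.362 in MS-, and 1.80 and 0.734 in MS+, with 1 library under the floor of 3 reads. FBS was highest in each source, and RA1 was above RA2 in each culture. The log2 fold change was -1.04 ± 0.47 for MS- against FBS (adjusted p of 0.266 in limma, 0.0158 with the block) and -0.83 ± 0.47 for MS+ against FBS (0.307 and 0.0386).

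Both calls of Cox6a2 depended on single libraries. The first was lost without the FBS library of RA1 (adjusted p of 0.0911, limma with the block) or the MS- library of RA1 (0.107) or RA2 (0.157), and the second without any of the 6 (0.0503 to 0.231). Of the 14 skeletal muscle genes in the table, 6 were tested. The 14 had a summed level of 1159 and 1289 CPM in FBS, 992 and 1045 in MS-, and 1241 and 1162 in MS+, most of it Acta1. The myosin genes Myh1, Myh2 and Myh4 ran against Cox6a2 between the sources: Myh1 stood at 24.2 and 271 CPM in FBS, 47.6 and 209 in MS-, and 19.6 and 88.3 in MS+. Ckm (0 to 0.732 CPM), Mb and Tnnc2 were at or near 0 and Tnni2 had no read. The part of muscle gene expression in the Cox6a2 values was not tested.

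The c-ring of the ATP synthase is encoded by 3 genes for an identical mature protein. Atp5g2 stood at 104 to 139 CPM, Atp5g3 at 68.5 to 82.2 and Atp5g1 at 24.0 to 40.6. Atp5g1 had 36.7 and 24.0 CPM in FBS, 38.8 and 31.1 in MS-, and 38.0 and 40.6 in MS+. The gap between FBS and MS+ came mainly from RA2 (0.73 on the log2 scale, against 0.051 in RA1). Its log2 fold change of 0.39 ± 0.21 did not pass (adjusted p of 0.281 in limma, 0.0619 with the block). Atp5g2 and Atp5g3 had values between -0.18 and 0.14 in the 3 comparisons.

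RA1 and RA2 differed in these genes in every culture. Of the 75 members, 46 (61.3%) were lower in RA2 than in RA1 in all 3 cultures, where 21.1% of all features were. Only 2 members (2.67%) were higher in RA2 in all 3, beside 21.4% of all features. The median of RA2 minus RA1 was -0.20 in FBS, -0.17 in MS- and -0.067 in MS+, on the log2 scale, so the median gap over all members was smallest with MS+ serum. This order did not hold in every group. In complex II the gap was widest in MS+ (-0.22), the complex I core had -0.18 in FBS, -0.069 in MS- and -0.18 in MS+, and Cycs was higher in RA2 in FBS (0.034) and MS+ (0.32). Members lower in RA2 in all cultures came from each of the 5 complexes: 18 of 32 in complex I, 3 of 4 in complex II, 6 of 8 in complex III, 8 of 13 in complex IV and 11 of 14 in complex V. Of the complexes, the ATP synthase had the widest gap in FBS (-0.31), and it was -0.24 in MS- and -0.066 in MS+. Summed over the 14 genes, RA2 had 0.817 times the level of RA1 in FBS, 0.848 in MS- and 0.913 in MS+.

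The same share in other gene groups is given beside it, untested. Among 67 mitochondrial ribosomal proteins 20.9% were lower in RA2 in all cultures, among 78 cytosolic ribosomal proteins 33.3%, among 15 glycolytic enzymes 26.7%, among 22 genes of the citric acid cycle and pyruvate dehydrogenase 27.3%, among 11 complex IV assembly genes 36.4% and among 7 carriers and porins 42.9%. In FBS alone the cytosolic ribosomal proteins (median -0.22) and the glycolytic enzymes (-0.24) were lower in RA2 by about as much as the members, and with MS+ serum they were not (0.0069 and 0.070). With 1 culture of each source in each serum, the origin of the cells and their handling cannot be told apart. The myosin genes named above were higher in RA2 in all 3 cultures, while 1 of the 6 muscle genes tested was lower in all 3. The part of muscle genes in the gap was not tested.

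**Figure D5:**
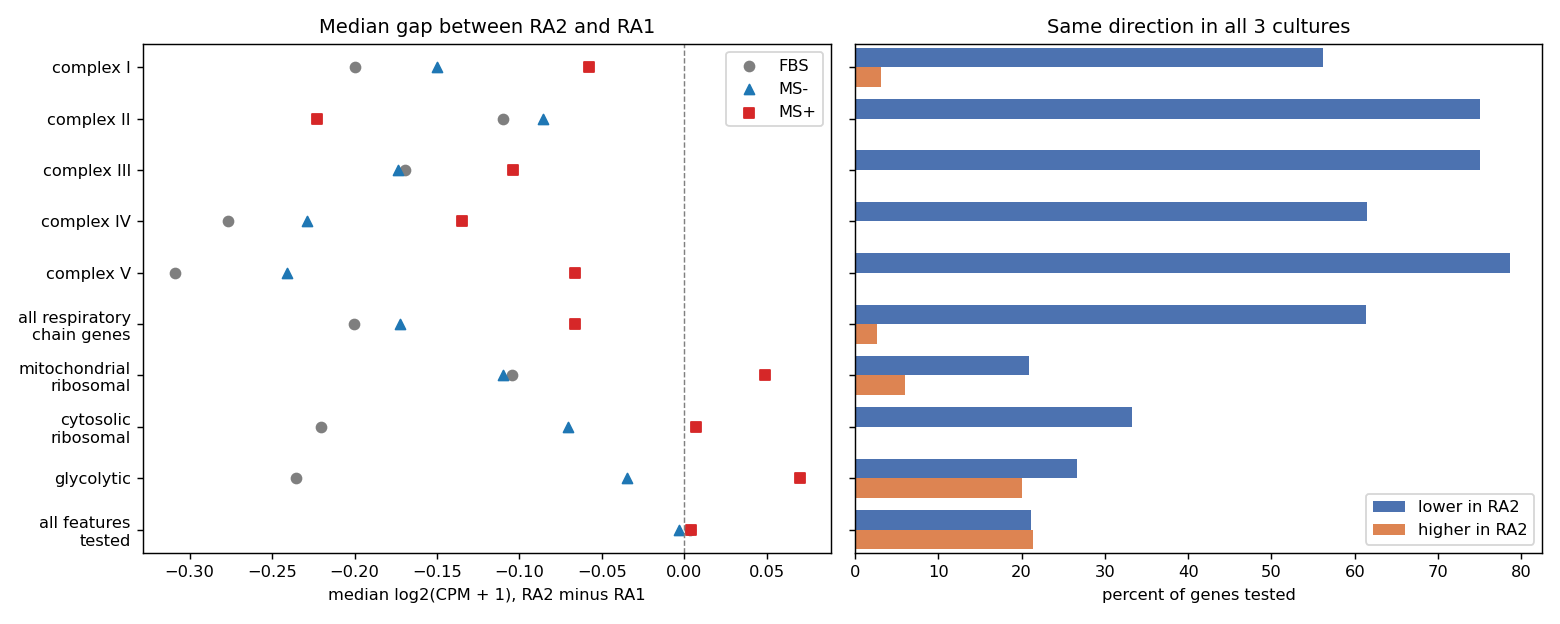
Left, the median of log2(CPM + 1) in RA2 minus RA1 for each complex and for comparison groups, with FBS as grey circles, MS- as blue triangles and MS+ as red squares. Right, the percent of genes lower (blue) or higher (orange) in RA2 in all 3 cultures, which reads 61.3% and 2.67% for the respiratory chain genes and 21.1% and 21.4% for all features tested.

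Genes that feed the chain or export its product included calls without the block. Of 22 genes of the citric acid cycle and pyruvate dehydrogenase tested, 3 rose in MS+ against FBS in limma without the block: Pdk4, Pdha1 and Dld. This is 13.6%, beside 9.61% of all features. Pdha1, the catalytic subunit that admits pyruvate to the mitochondrion's carbon cycle, had 151 and 161 CPM in FBS, 185 and 186 in MS-, and 239 and 235 in MS+ (0.60 ± 0.085, adjusted p of 0.0106). Pdk4, the kinase that switches this enzyme off, had 1.64 and 1.82 CPM in FBS, 15.7 and 16.6 in MS-, and 40.5 and 39.8 in MS+. It rose by 3.92 ± 0.16 in MS+ against FBS (adjusted p of 0.000298) and by 2.65 ± 0.16 in MS- against FBS (0.00185). With the block, 5 of the 22 rose and 1 fell in MS+ against FBS, a share of 27.3% beside 28.2% of all features (Ogdh among the rises, 0.51 ± 0.17, adjusted p of 0.000330 with the block, limma). In MS- against FBS 3 rose and 2 fell (22.7%, beside 20.5%), and in MS+ against MS- 3 rose (13.6%, beside 10.1%; Idh2 by 0.50 ± 0.11, 0.00503).

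Of 7 tested carriers and porins of the mitochondrial membranes, Slc25a4, the ADP/ATP carrier of heart and muscle type, had 448 and 410 CPM in FBS, 492 and 484 in MS-, and 660 and 630 in MS+. It rose in MS+ against FBS without the block (0.59 ± 0.093, adjusted p of 0.0151, limma) and in MS+ against MS- with it (0.40 ± 0.093, 0.00437). The blocked fit gave 2 rises and 1 fall in this list in MS+ against FBS (42.9%, beside 28.2% of all features). Atpif1, the inhibitor protein of the ATP synthase, had 97.4 and 81.9 CPM in FBS, 86.3 and 73.0 in MS-, and 64.1 and 69.6 in MS+. It was the single fall with the block among 5 assembly and inhibitor genes of the ATP synthase (-0.41 ± 0.13 in MS+ against FBS, adjusted p of 0.0999 in limma and 0.00979 with the block). Cox17, the copper chaperone of complex IV, was the single call among 11 assembly genes of that complex (9.09%, beside 28.2% of all features). It had 0.41 ± 0.16 in MS+ against FBS, with an adjusted p of 0.0333 with the block (limma).

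Of 8 tested genes on a list of complex I assembly and accessory proteins, Timmdc1 alone was called in MS- against FBS, as a fall (12.5%, beside 4.81% of all features). Its level was 16.7 and 13.8 CPM in FBS, 7.68 and 7.23 in MS-, and 14.8 and 14.5 in MS+. MS- was the lowest in each source, with no overlap with the other groups, as in Atp5sl. The fall was -0.93 ± 0.17 (adjusted p of 0.0302, limma), and the value of MS+ against MS- was 0.89 ± 0.17 (0.126, and 0.00482 with the block). Over the 8 genes the median was 0.080 in MS- against FBS, with 5 positive, and -0.13 in MS+ against MS-, with 6 negative. Most of the list thus did not share the low MS- level of Timmdc1. The assembly genes of complex II (1 tested) and complex III (2 tested) had no call.

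Among 16 tested regulators of mitochondrial biogenesis none passed without the block in limma. With it, 2 rose and 1 fell in MS+ against FBS (18.8%, beside 28.2% of all features). In MS- against FBS 1 rose (6.25%, beside 20.5%). Ppargc1a, the coactivator that drives respiratory genes in muscle and liver, was at 0 to 0.367 CPM and was not tested. Esrra, a nuclear receptor that works with it, had 46.8 and 34.3 CPM in FBS, 60.4 and 53.5 in MS-, and 55.1 and 59.6 in MS+. FBS lay below both rat sera, by 0.51 ± 0.16 for MS+ and 0.49 ± 0.16 for MS- (adjusted p of 0.00761 and 0.0118 with the block, limma). Nrf1 had 17.2 and 16.1 CPM in FBS, 14.1 and 14.1 in MS-, and 13.0 and 10.3 in MS+. Its log2 fold change of MS+ against FBS was -0.49 ± 0.17 (adjusted p of 0.117, and 0.0427 with the block, limma). Its relation to the members with NRF1 letters in their windows was not tested. Tfam, which packs and transcribes mitochondrial DNA, had no call, with values from -0.30 to 0.14.

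Glycolytic enzymes were set beside the chain. No gene of the 15 passed without the block. With it, 5 fell in MS- against FBS (33.3%, beside 20.5% of all features), Pgk1 (-0.52 ± 0.11, adjusted p of 0.000918, limma) and Pkm2 (-0.43 ± 0.097, 0.00174) among them, and 2 fell in MS+ against FBS (13.3%, beside 28.2%). The median was -0.14 in MS- against FBS and -0.19 in MS+ against FBS, where the respiratory members had -0.018 and 0.025. Pkm2 had 443 and 390 CPM in FBS, 303 and 312 in MS-, and 327 and 333 in MS+. The mitochondrial ribosomal proteins had medians of -0.10 and -0.14 in the same 2 comparisons, and the cytosolic ones -0.20 and -0.11.

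Some member rows are less certain than others. Of the 80 members, 4 had more than 1 row and 9 overlapped a row of another symbol, where reads can be dropped. For Atp5h, a peripheral stalk subunit, the most abundant row was a span of 578 bases on chromosome 5 (77.4 to 94.8 CPM), above the row of 5062 bases on chromosome 10 (52.4 to 56.6 CPM). For Ndufa10 it was a span of 1935 bases on chromosome 6 (51.2 to 57.1 CPM), above one of 34519 bases on chromosome 9 (7.13 to 9.62 CPM). Atp5e (362 bases) and Ndufs6 (414 bases) also rest on short spans. The reads were aligned with a tool that does not split a read over an intron, and how this shared reads between spliced genes and short copies was not tested. Without the members of several rows or an overlap, 0 of 64 passed in each comparison, and the medians were 0.099, 0.051 and -0.015 in MS+ against MS-, MS+ against FBS and MS- against FBS.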

How the data were processed

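Per the labels and the methods of the study, RNA of 6 cultures was sequenced, and the authors aligned reads to rn4 with Bowtie2 2.1.0, counted them per transcript with HTSeq 0.5.4p3 and scaled them by TMM. The deposited values are this normalized signal in CPM. With the CPM of a single read taken from each column, whole reads were recovered for 100% of values (tolerance 1e-06 reads). Features with both libraries of at least 1 group at 1 CPM were tested with the trend method of limma 3.58.1 (R 4.3.3), two-sided, on log2(CPM + 1), a scale that understates changes of low genes, with Benjamini-Hochberg adjustment over all 9820. Alternatives were the cell source as block, edgeR 4.0.16 and DESeq2 1.42.0 on recovered reads, limma-voom, other scalings, pseudocounts and filters, summed rows, and leaving out each library. Same-numbered libraries share a cell source code in the labels (RA1 or RA2), which was taken as pairing them, although whether a code is a single rat is not given in the sources used here. The difference of RA2 from RA1 correlated across features by 0.59 (MS+ with MS-), 0.49 (MS+ with FBS) and 0.62 (MS- with FBS), and among members by 0.23, 0.13 and 0.58. Named were, by complex, the extremes of each comparison, the most abundant member, the isoform sets and blocked calls. Of other lists, some of the called genes were named. Members and lists were chosen with earlier results of these data known, and roles were assigned after the table was seen. Values of 1 member are not reported here by name. The limma test was checked on simulated counts. Coordinates of genes are rn4 as deposited, 1-based; promoters are RefSeq, GRCr8, the first window listed per gene.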

Additional observations from a re-analysis of the deposited data

How the results depend on the processing

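Of 78 gene values recomputed, 36 changed sign in at least 1 alternative, 0 of them where the value was called. None of the 78 was called in an alternative without the replicate block, and 24 were in at least 1 with it. Counts below are members in MS+ against MS-, MS+ against FBS and MS- against FBS. With the replicate block, which uses the pairing by cell source, 1, 8 and 4 members passed the adjusted p in limma and 1, 9 and 4 in edgeR. The unpaired fit gave 0. Of all features, 10.1%, 28.2% and 20.5% passed in limma with the block. At an unadjusted p the block gave 9, 16 and 9 in limma and 9, 16 and 8 in edgeR, against 2, 6 and 2 unpaired. The counts over all 9820 features moved as well, in MS+ against MS- to 2420 with the block from 1446 unpaired (limma). Member counts here and in the fits below are to be read against such shifts, and are no result about these genes alone. DESeq2 gave 1, 3 and 1 members at an unadjusted p, and edgeR and limma-voom 1 each in MS- against FBS. The study rule took in 1 member in MS+ against FBS (edgeR with block) and, in MS- against FBS, 1 (limma with block) or 2 (edgeR with block). The median of MS- against FBS, -0.018, was -0.028 with DESeq2 size factors, -0.048 with library totals, -0.019 without the filter, -0.014 at 5 CPM or more, -0.020 in edgeR, -0.021 in edgeR with block, -0.032 in DESeq2 and -0.015 without uncertain rows. Scaling by library totals turned the median of MS+ against FBS to -0.023, where that of all features was -0.046. Leaving out each library, with and without the block, gave 0 to 7, 0 to 8 and 0 to 7 members past the adjusted p, 1 to 15, 0 to 14 and 1 to 12 at an unadjusted p, and 0 to 1 past the study rule in MS- against FBS. Medians then ranged from -0.0060 to 0.17, from -0.065 to 0.14 and from -0.12 to 0.086. Within these ranges, the block without 1 library gave at an unadjusted p 10 members (without FBS of RA1) and 11 (MS+ of RA2) in MS+ against MS-, 10 (FBS of RA2, or MS- of either source) and 13 (MS+ of RA1) in MS+ against FBS, and 11 (FBS of RA2) in MS- against FBS. The median of MS- against FBS with the block was 0.0010 without FBS of RA1, -0.026 without FBS of RA2, -0.039 without MS- of RA1 and 0.0084 without MS- of RA2. In these fits a group left with 1 library is assumed to vary like the others. The block and the 2 alternatives built on it, edgeR with the block and leaving out libraries with it, changed the most counts; the last 2, and leaving out uncertain rows, were chosen after seeing the data. The cause of each shift was not tested. With 2 libraries a group and 5463316 to 5991889 reads a library, differences under the intervals given cannot be told from none.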
